A study of Mus musculus with 58 samples.

Results

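Expression of 48 genes of the lysosome was described in the frontal cortex and hippocampus of mice that carry mutant human amyloid genes and of wild-type mice. The genes were chosen by name, with earlier results of these data known. They are enzymes that digest lysosomal cargo, soluble helper proteins without enzyme activity, lysosomal membrane proteins, and subunits of the vacuolar proton pump. The cathepsins were left out apart from Ctsa. Of the 48 genes, 47 had a probe set among the 17216 named genes of the array, and Atp6v0c, the membrane ring subunit of the pump, was not among them. The measured genes were 26 hydrolases, 4 soluble non-enzymatic proteins, 11 membrane proteins and 6 pump subunits.

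The study asked how the transgenes change brain expression in males and in females. RNA of dissected tissue was hybridised to 58 arrays, 1 per mouse and region, and all animals were 8 months old on a C57BL/6J background. Transgenic mice (TG) carried Thy1-APPKM670/671NL and Thy1-PS1L166P, injected together, and wild-type mice (WT) carried neither. The Thy1 promoter drives both transgenes in neurons, so the products are made by neurons and the other brain cells meet them from outside. The cortical tissue is labelled frontal cortex, and the protocol calls it prefrontal. There were 14 WT and 14 TG arrays of the frontal cortex, with 6 females and 8 males of each genotype. The hippocampus had 15 WT and 15 TG arrays, with 7 females and 8 males of each genotype.

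Lysosomes are acidic compartments in which glycosidases, sulfatases, lipid hydrolases and peptidases take apart material brought in by endocytosis, phagocytosis and autophagy. The proton pump acidifies them: its cytosolic V1 sector splits ATP and its membrane V0 sector moves protons. Every brain cell has lysosomes, neurons use the same pump to fill synaptic vesicles, and microglia, the phagocytes of the brain, hold many of the digestive enzymes at high levels.

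All values below are deposited log2 values of single arrays, and all differences are differences of log2 values, so that 1 unit is a doubling. Array values of different genes cannot be compared with each other. Tests are limma's moderated test with Benjamini-Hochberg adjustment over the 17216 genes, and a gene is said to have risen or fallen when its adjusted p was below 0.05.

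Thy1, the gene whose promoter drives both constructs and whose probe set read higher in TG mice, served as a check of the labels. In the cortex it lay between 10.55 and 11.42 in WT mice and between 11.94 and 12.34 in TG mice. In the hippocampus it ranged from 10.61 to 11.02 in WT arrays and from 11.90 to 12.38 in 14 of the 15 arrays labelled TG. The array labelled TG hippocampus of mouse 7 read 10.92, within the WT range, and that mouse had no cortex array. The hippocampus array of TG mouse 4 stood apart in another way: its mean of 4 frontal cortex marker genes was 7.72 and its mean of 6 hippocampus marker genes 7.28, the highest and the lowest of all hippocampus arrays. The next highest cortex marker means were 7.39 and 7.35, in the hippocampus of WT mice 1 and 14, and the other TG hippocampus arrays reached at most 6.68. Both marker lists separated the regions as labelled in every array, with cortex marker means from 7.95 to 8.51 in the cortex. Results for the hippocampus were therefore also computed without these arrays.

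In the transgenic frontal cortex 30 of the 47 measured members rose. Another 6 fell and 11 did not pass the test, against 31.6% of all genes that passed, 12.9% higher and 18.7% lower. The median difference of the members was 0.28, against -0.01 over all genes. By role, 17 of 26 hydrolases, 3 of 4 soluble proteins and 8 of 11 membrane proteins rose, with medians of 0.34, 0.95 and 0.28. Of the 6 measured pump subunits 2 rose and 4 fell, with a median of -0.19, and the roles were not tested against each other. The brighter genes, those with a mean level above the median, were also tested alone. Of these 8608 genes 3036 fell and 1532 rose, and of the 40 members among them 6 fell and 26 rose. In 15 members every TG array lay above every WT array, which held for 2.06% of all genes, and no member had every TG array below every WT array (0.134% of all genes).

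**Figure D1:**
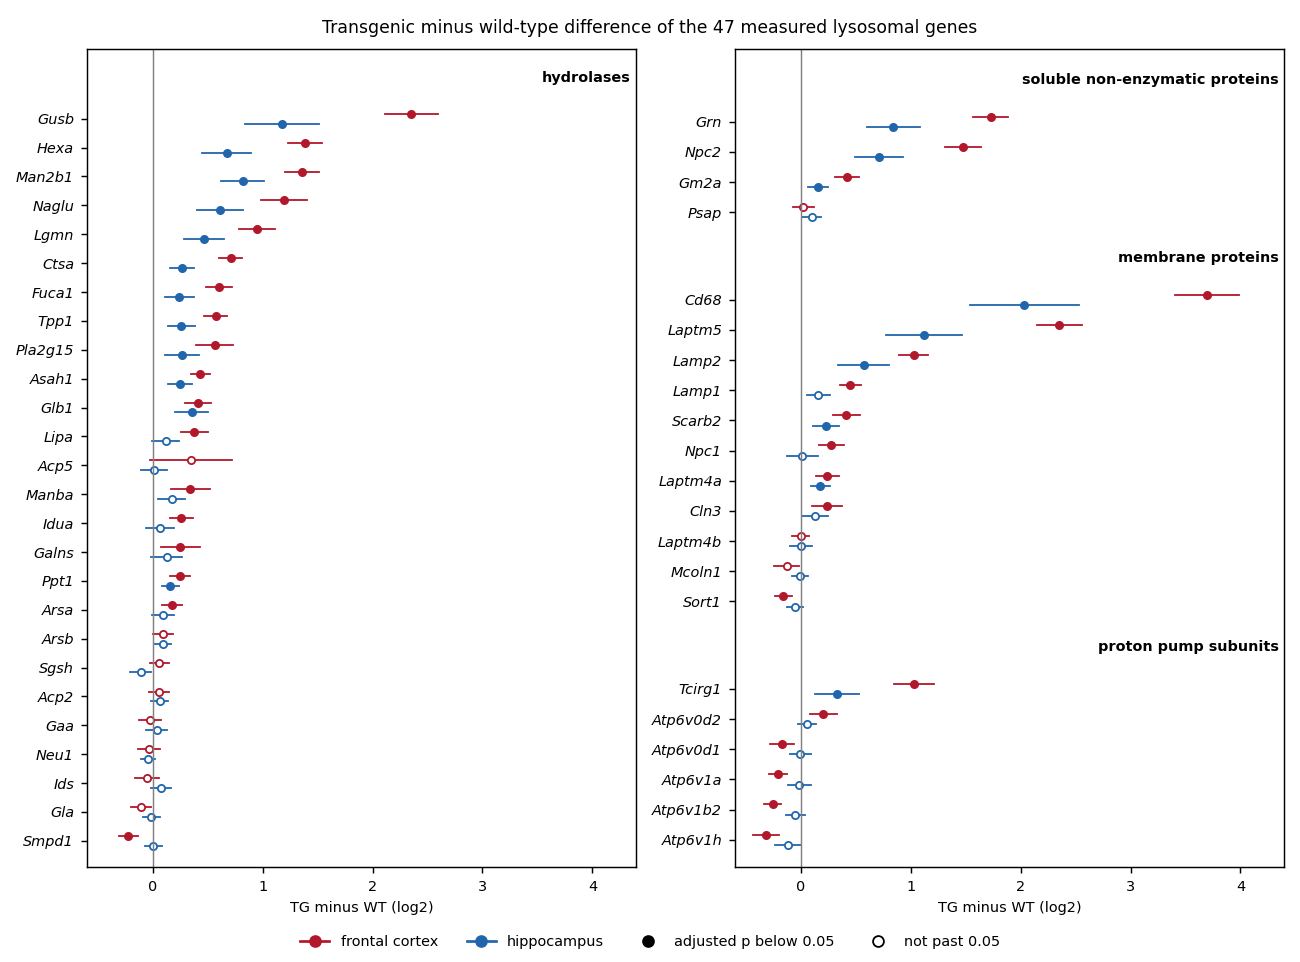
TG minus WT difference (log2, horizontal axis) of each measured member, grouped by role and sorted by the cortex value. Red points are the frontal cortex and blue points the hippocampus, bars are 95% intervals, and filled points have an adjusted p below 0.05. Cd68, Gusb and Laptm5 lie farthest to the right in both regions, and 4 pump subunits, Smpd1 and Sort1 lie left of 0 in the cortex with filled points.

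Among the hydrolases the glycosidases, which trim sugar chains from glycoproteins, glycolipids and glycosaminoglycans, had 8 of 11 members that rose. Gusb, beta-glucuronidase, ranged from 3.75 to 4.57 (median 4.14) in WT cortex and from 5.78 to 7.55 (median 6.32) in TG cortex. The groups did not overlap, and the difference was 2.35 (SE 0.12, adjusted p = 6.94e-16 with limma), the largest among the enzymes. Hexa, the alpha subunit of beta-hexosaminidase, ranged from 8.14 to 8.47 (median 8.34) in WT and from 9.19 to 10.06 (median 9.69) in TG. Man2b1, lysosomal alpha-mannosidase, ranged from 7.57 to 8.06 (median 7.85) in WT and from 8.86 to 9.69 (median 9.09) in TG. Both were separated completely by genotype, with differences of 1.39 (SE 0.08) and 1.36 (SE 0.08). Naglu, which removes N-acetylglucosamine from heparan sulphate, ranged from 4.01 to 4.79 (median 4.39) in WT and from 5.14 to 6.22 (median 5.36) in TG, a rise of 1.20 (SE 0.10). Smaller rises were found for Fuca1 (0.60, SE 0.06), Glb1 (0.41, SE 0.06), Manba (0.34, SE 0.09) and Idua (0.26, SE 0.05), which act on fucose, galactose, mannose and iduronic acid. Gaa, which degrades glycogen, Neu1, a sialidase, and Gla, which removes terminal alpha-galactose, differed by -0.02 (SE 0.05), -0.03 (SE 0.05) and -0.11 (SE 0.04) and did not pass. Gla passed as a fall under 5 alternatives, with adjusted p-values of 0.0059 with equal array medians, 0.005 after a second quantile normalization, 0.021 with array weights, 0.0318 in the joint fit of all groups and 0.0306 with the mouse as a replicate block, and also in males alone (-0.16, adjusted p = 0.049 with limma).

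The peptidases rose without exception among the 3 listed. Lgmn, an asparaginyl endopeptidase that also processes cathepsins, rose by 0.95 (SE 0.08), and Tpp1, which removes tripeptides from the ends of proteins, by 0.57 (SE 0.05). Ctsa, a carboxypeptidase that also stabilises Glb1 and Neu1, ranged from 5.89 to 6.22 (median 6.08) in WT and from 6.52 to 7.12 (median 6.78) in TG. Its groups were separate, with a difference of 0.71 (SE 0.05, adjusted p = 4.46e-12 with limma). Neu1, which works in 1 complex with Ctsa and Glb1, was the one of these that did not pass.

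Of the 5 lipid hydrolases 4 rose and 1 fell. Pla2g15, a lysosomal phospholipase, rose by 0.56 (SE 0.08), Asah1, acid ceramidase, by 0.43 (SE 0.04), Lipa, acid lipase, by 0.38 (SE 0.06), and Ppt1, which removes palmitate from proteins, by 0.25 (SE 0.04). Smpd1, acid sphingomyelinase, ranged from 8.69 to 9.10 (median 8.95) in WT and from 8.57 to 8.88 (median 8.71) in TG. It fell by 0.22 (SE 0.04, adjusted p = 0.000101 with limma), its groups overlapped, and no other hydrolase fell in the reported fit. Asah1 and Smpd1 act on neighbouring steps of sphingolipid breakdown, and their cortex differences had opposite signs.

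The sulfatases moved little. Galns rose by 0.25 (SE 0.09, adjusted p = 0.0233 with limma) and Arsa, arylsulfatase A, by 0.17 (SE 0.05), while Arsb, Sgsh and Ids differed by 0.10, 0.06 and -0.05 and did not pass. Galns did not pass when array medians were made equal or when the cortex arrays were quantile normalized again, with adjusted p-values of 0.0637 and 0.0767. Arsb ranged from 5.25 to 5.66 (median 5.51) in WT and from 5.38 to 5.89 (median 5.58) in TG cortex, and the groups overlapped widely. Neither acid phosphatase passed, with differences of 0.06 (SE 0.04) for Acp2 and 0.35 (SE 0.18) for Acp5. In WT cortex Acp5 lay at percentile 8.99 of all genes, and no detection call shows it above background. Acp5, known from osteoclasts and activated macrophages and given by array after its values were seen, read 5.87 in the cortex of TG mouse 4, while its TG median was 3.13 and its WT arrays ranged from 2.66 to 3.41. The same array had the highest mean of the meninges and fibroblast markers in the cortex, 5.93, and their part in its Acp5 value was not tested. Acp5 passed with the mouse as a replicate block (0.35, adjusted p = 0.0467 with limma) and in the joint fit of all groups (0.35, adjusted p = 0.0492 with limma).

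Of the soluble non-enzymatic proteins 3 of 4 rose. Grn, progranulin, a secreted protein that is delivered to lysosomes, ranged from 7.75 to 8.30 (median 7.96) in WT and from 9.15 to 10.18 (median 9.62) in TG. Npc2, which hands cholesterol to the membrane protein Npc1, ranged from 7.09 to 7.55 (median 7.27) in WT and from 8.23 to 9.25 (median 8.73) in TG. Every TG array of both genes lay above every WT array, with differences of 1.73 (SE 0.08) and 1.48 (SE 0.08). Gm2a, the activator that presents GM2 ganglioside to the Hexa enzyme, ranged from 6.16 to 6.75 (median 6.30) in WT and from 6.48 to 7.07 (median 6.70) in TG, and rose by 0.42 (SE 0.05). Psap, the precursor of the saposins that do the same for other sphingolipids, ranged from 11.10 to 11.39 (median 11.24) in WT and from 10.93 to 11.41 (median 11.28) in TG. It differed by 0.02 (95% interval -0.07 to 0.12) and its groups overlapped, with the TG arrays of mice 40 and 41 below every WT array.

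The membrane proteins spanned the widest range of differences. Cd68, a glycoprotein of phagocyte endosomes and lysosomes, ranged from 4.09 to 5.36 (median 4.47) in WT and from 7.47 to 9.19 (median 8.08) in TG. It showed the largest difference of all members, 3.70 (SE 0.14, adjusted p = 1.44e-18 with limma), a fold of 12.99, and its p ranked at position 13 among all genes. Laptm5, a lysosomal protein of blood-derived cells and microglia, ranged from 6.12 to 6.52 (median 6.24) in WT and from 7.84 to 9.17 (median 8.53) in TG, with a difference of 2.35 (SE 0.10). Its relatives Laptm4a and Laptm4b, which are made by many cell types, moved far less. Laptm4a ranged from 10.31 to 10.68 (median 10.54) in WT and from 10.45 to 11.22 (median 10.78) in TG, a rise of 0.24 (SE 0.05). Laptm4b ranged from 9.34 to 9.57 (median 9.41) in WT and from 9.22 to 9.67 (median 9.41) in TG, with an interval of the difference from -0.08 to 0.08.

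The abundant membrane glycoproteins Lamp1 and Lamp2 both rose. Lamp2, which also serves in chaperone-mediated autophagy, ranged from 7.29 to 7.78 (median 7.45) in WT and from 8.17 to 8.97 (median 8.44) in TG. Lamp1 ranged from 9.96 to 10.41 (median 10.17) in WT and from 10.45 to 10.89 (median 10.62) in TG. The groups were separate for both genes, and the differences were 1.03 (SE 0.07) for Lamp2 and 0.45 (SE 0.05) for Lamp1. Scarb2, which carries glucocerebrosidase to the lysosome, rose by 0.42 (SE 0.06) and Cln3, the membrane protein mutated in juvenile Batten disease, by 0.24 (SE 0.07). Npc1, the cholesterol exporter, ranged from 6.13 to 6.69 (median 6.36) in WT and from 6.47 to 6.90 (median 6.65) in TG and rose by 0.28 (SE 0.06), against 1.48 for its partner Npc2. Mcoln1, a cation channel of the lysosome, differed by -0.13 (SE 0.06) and did not pass, with an adjusted p of 0.0847 (limma). Its adjusted p was 0.028 with the mouse as a replicate block, 0.0303 in the joint fit of all groups and 0.0127 with equal array medians (limma). Sort1, the sorting receptor that takes up progranulin, ranged from 6.06 to 6.33 (median 6.21) in WT and from 5.92 to 6.24 (median 6.07) in TG and fell by 0.16 (SE 0.04, adjusted p = 0.00147 with limma), with overlapping groups. In the cortex Grn thus rose while its receptor Sort1 fell.

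**Figure D2:**
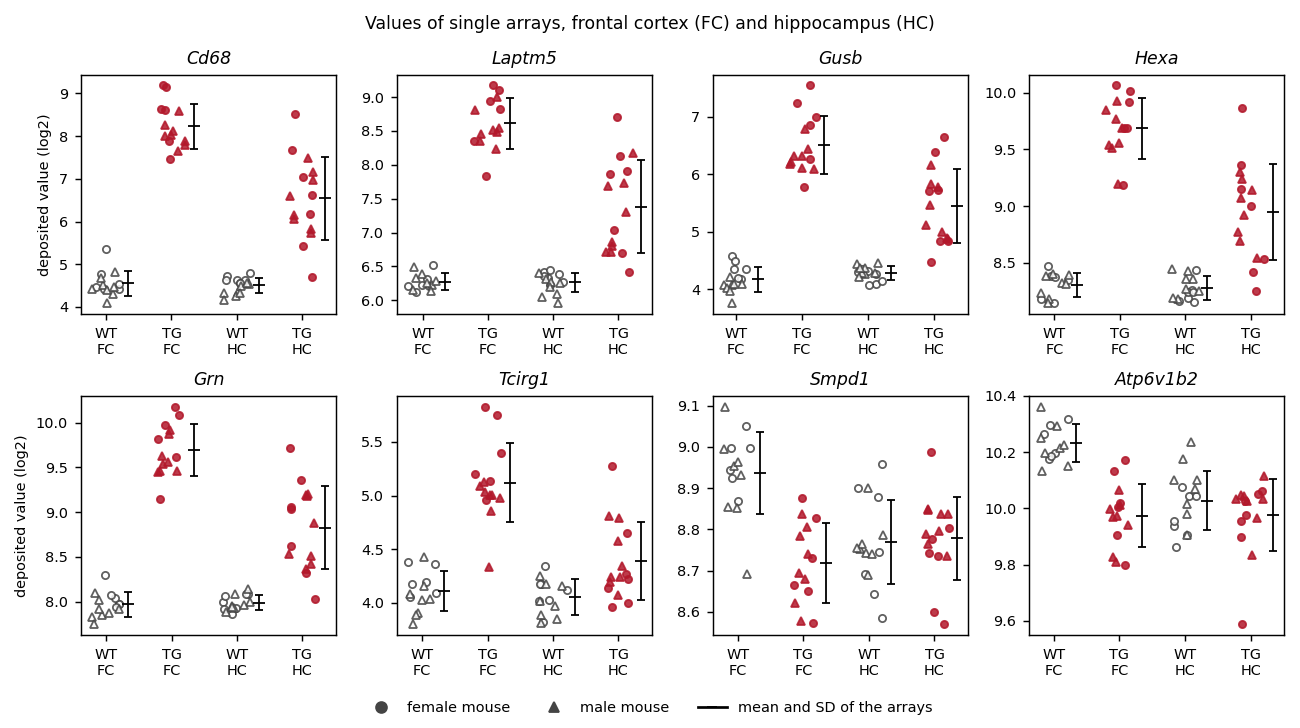
Deposited log2 values (vertical axis, own scale per gene) of every array for 8 members in WT and TG frontal cortex (FC) and hippocampus (HC). Circles are female and triangles male mice, and the bar beside each group is its mean and SD. For Cd68, Laptm5, Gusb, Hexa and Grn the TG cortex arrays lie above all WT arrays and the TG hippocampus arrays spread between the 2 levels, while Smpd1 and Atp6v1b2 are lower in TG cortex.

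Among the pump subunits of the V0 sector, Tcirg1, the a3 subunit that is prominent in osteoclasts and macrophages, ranged from 3.80 to 4.43 (median 4.08) in WT and from 4.33 to 5.83 (median 5.06) in TG, and rose by 1.03 (SE 0.09). Atp6v0d2, the d2 isoform known from osteoclasts and macrophages, ranged from 2.95 to 3.33 (median 3.11) in WT and from 3.03 to 3.83 (median 3.28) in TG, and rose by 0.21 (SE 0.06). Atp6v0d1, the widely expressed d1 isoform of the same V0 subunit, ranged from 10.18 to 10.71 (median 10.35) in WT and from 10.04 to 10.48 (median 10.19) in TG, and fell by 0.17 (SE 0.05). The groups of both overlapped. Atp6v0d2 lay at percentile 14.9 of all genes in WT cortex, no detection call shows it above background, and its highest TG values were those of mice 4 (3.83) and 11 (3.75). It passed in females alone (0.33) and not in males (0.08), while Atp6v0d1 passed in males (-0.30) and not in females (-0.04), and neither sex difference passed.

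The 3 listed subunits of the cytosolic V1 sector all fell. Atp6v1h, a regulatory subunit, ranged from 9.25 to 9.73 (median 9.55) in WT and from 8.83 to 9.50 (median 9.22) in TG, and fell by 0.32 (SE 0.06). Atp6v1b2, the B2 subunit found in brain, ranged from 10.13 to 10.36 (median 10.22) in WT and from 9.80 to 10.17 (median 9.99) in TG, and fell by 0.26 (SE 0.04). Atp6v1a, the catalytic A subunit, ranged from 10.63 to 10.86 (median 10.68) in WT and from 10.27 to 10.65 (median 10.52) in TG, and fell by 0.21 (SE 0.04). For all 3, each of the 14 TG arrays lay below the WT median, and the ranges of the genotypes overlapped.

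The other subunits and accessory proteins of the pump, formed a list of 18 genes of which 15 were measured. In the cortex 7 fell, 1 rose and 7 did not pass, with a median of -0.11, beside 18.7% of all genes lower and 12.9% higher. Of the 8608 brighter genes tested alone, 3036 fell and 1532 rose, with a median of -0.06. The member subunits that fell lay between percentiles 96.6 and 99.2 of all genes in WT cortex, so falls were more frequent among genes of their brightness than among all genes. Atp6v1g2, a neuronal stalk subunit, fell by 0.31 (SE 0.04), Atp6ap2, the prorenin receptor that is also an accessory protein of the pump, by 0.21 (SE 0.04), and Atp6v1e1, another stalk subunit, by 0.19 (SE 0.04). Atp6v0e rose by 0.53 (SE 0.06), and its close relative Atp6v0e2, named after its value was seen, fell by 0.21 (SE 0.05). A further list of 42 lysosomal genes that are not members, 34 of them measured, had 10 that rose and 4 that fell, with a median of 0.04. Over the members and both lists together 41 of 96 measured genes rose and 17 fell, beside 12.9% of all genes higher and 18.7% lower. Aga, which cleaves asparagine-linked sugars, rose by 0.65 (SE 0.08), Galc, which degrades galactosylceramide, by 0.23 (SE 0.04) and the transcription factor Mitf by 0.25 (SE 0.06). Sorl1, a sorting receptor for the amyloid precursor, fell by 0.28 (SE 0.06), Slc36a1, an amino acid transporter, by 0.31 (SE 0.09), and Mfsd8, a lysosomal membrane protein mutated in a form of Batten disease, by 0.29 (SE 0.10).

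**Figure D3:**
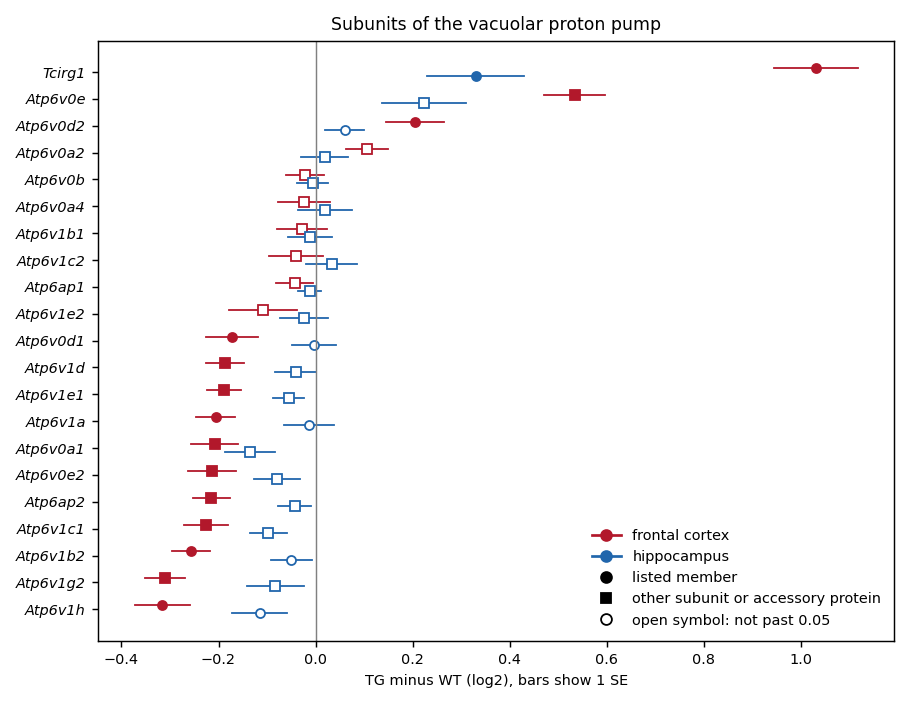
TG minus WT difference (log2, horizontal axis, bars 1 SE) of the 6 measured member subunits (circles) and the 15 other measured subunits or accessory proteins (squares) of the proton pump, in frontal cortex (red) and hippocampus (blue). Filled symbols have an adjusted p below 0.05. In the cortex 11 of the 21 symbols are filled to the left of 0 and 3 to the right (Tcirg1, Atp6v0e and Atp6v0d2), and in the hippocampus Tcirg1 alone is filled.

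Markers of brain cell types moved in the same arrays. All 15 microglial markers rose in the TG cortex, with a median of 2.07, and the mean of the list lay between 6.27 and 6.83 in WT and between 8.14 and 9.33 in TG mice. All 8 astrocyte markers rose, with a median of 0.46, and 5 of 8 neuronal markers fell, with a median of -0.23. Of the oligodendrocyte markers 3 of 6 rose (median 0.21) and of the vessel markers 3 of 6 (median 0.17). Beside these counts, 12.9% of all genes were higher and 18.7% lower in the TG cortex. Of the 8608 brighter genes tested alone, 1532 were higher and 3036 lower. In bulk tissue more or fewer cells of a type and more or less RNA per cell cannot be told apart. Among the TG cortex arrays the microglial mean was lowest in mouse 8 (8.14) and highest in mouse 11 (9.33). Of the 15 members whose cortex groups did not overlap, 11 were lowest in mouse 8 and 7 highest in mouse 11. The other 8 were highest in mouse 4, and Ctsa was lowest in mouse 11. The part of the content of these cell types in the rises and falls of the lysosomal genes was not tested.

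Promoters were read for the members because many lysosomal genes are known to share a short palindromic element, CLEAR, that the transcription factor Tfeb binds. RefSeq promoter windows of build GRCm38.p6, 250 bases before to 50 bases after the start, were at hand for 40 of the 48 members. The core TCACGTG, searched on both strands, lay in 13 of these 40 genes (32.5%) and in 4.29% of all 27025 genes with a window. CACGTG, which is contained in it, was found in the same 32.5% of members and in 8.09% of all genes, and GAGGAAG, the core of a site for factors of the PU.1 family, which shares no stretch with it, in 20.0% of members and 15.36% of all genes. The core TCACGTG was held by 7 of the 26 members with a window that rose in the TG cortex, by 2 of the 3 that fell and by 4 of the 10 that did not pass. GAGGAAG was held by 7 of the 26, none of the 3 and 1 of the 10. Tfeb itself, named here after its value was seen, rose by 0.16 (SE 0.05) in the cortex. The members Cln3, Arsa, Sgsh, Gla and Atp6v0d1 also held the core and are not printed. Stretches of 60 bases are printed as examples for 5 members that rose, 1 that fell and 2 that did not pass. Each reads 5′ to 3′ on the strand of the gene, and capitals mark TCACGTG or its reverse complement CACGTGA, which overlap in some.
Naglu: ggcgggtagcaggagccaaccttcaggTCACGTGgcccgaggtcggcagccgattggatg
Lgmn: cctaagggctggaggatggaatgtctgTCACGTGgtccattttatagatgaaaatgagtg
Ctsa: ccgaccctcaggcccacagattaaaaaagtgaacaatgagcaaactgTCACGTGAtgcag
Lamp1: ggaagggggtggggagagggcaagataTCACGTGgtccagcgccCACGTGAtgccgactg
Glb1: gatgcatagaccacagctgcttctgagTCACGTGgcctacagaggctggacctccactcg
Atp6v1a: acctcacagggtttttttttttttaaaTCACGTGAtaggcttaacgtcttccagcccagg
Mcoln1: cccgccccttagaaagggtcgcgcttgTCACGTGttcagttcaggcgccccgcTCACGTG
Gaa: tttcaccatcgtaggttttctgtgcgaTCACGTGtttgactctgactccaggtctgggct
The stretches lie upstream of the start, at chr11:101069993-101070052 (plus strand) for Naglu, chr12:102439110-102439169 (minus) for Lgmn, chr2:164833713-164833772 (plus) for Ctsa, chr8:13159072-13159131 (plus) for Lamp1 and chr9:114401002-114401061 (plus) for Glb1. Those of Atp6v1a, Mcoln1 and Gaa lie at chr16:44139359-44139418 (minus), chr8:3500420-3500479 (plus) and chr11:119267795-119267854 (plus). The stretches of Lgmn, Ctsa and Atp6v1a lie inside the annotated gene, upstream of a start within it. More than 1 window was at hand for 7 members. A match describes these letters only. The cortex differences of these genes ran from 1.20 for Naglu to -0.21 for Atp6v1a, and none of Grn, Npc2, Gm2a and Psap held the core.

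In the transgenic hippocampus fewer members passed than in the cortex. Of the 47 members 21 rose, none fell and 26 did not pass, against 6.64% of all genes that passed, 3.94% higher and 2.7% lower. All 21 had risen in the cortex. The median of the members was 0.13 (all genes -0.01). By role 12 of 26 hydrolases, 3 of 4 soluble proteins, 5 of 11 membrane proteins and 1 of 6 pump subunits rose, with medians of 0.14, 0.44, 0.16 and -0.01. Without the arrays of mice 4 and 7 the count was again 21, and without that of mouse 7 it was 22, with Manba added.

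The genes with the largest hippocampal differences were those of the cortex. Cd68 ranged from 4.15 to 4.79 (median 4.57) in WT and from 4.69 to 8.51 (median 6.60) in TG hippocampus, with a difference of 2.03 (SE 0.24, adjusted p = 4.94e-06 with limma). Its lowest TG value was that of the array of mouse 7, labelled TG, and its highest that of mouse 4. Gusb ranged from 4.07 to 4.45 (median 4.28) in WT and from 4.47 to 6.66 (median 5.46) in TG, a difference of 1.18 (SE 0.16). Laptm5 ranged from 5.96 to 6.45 (median 6.27) in WT and from 6.42 to 8.71 (median 7.30) in TG, a difference of 1.12 (SE 0.17). In all 3 the TG arrays were spread over a wide range, and mouse 7 and mouse 4 formed its ends.

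Grn ranged from 7.87 to 8.14 (median 7.97) in WT and from 8.03 to 9.71 (median 8.87) in TG hippocampus and rose by 0.84 (SE 0.12). Man2b1 ranged from 7.47 to 7.93 (median 7.62) in WT and from 8.03 to 9.21 (median 8.39) in TG and rose by 0.82 (SE 0.10). Npc2 ranged from 7.21 to 7.78 (median 7.48) in WT and from 7.45 to 9.09 (median 8.17) in TG and rose by 0.71 (SE 0.11). Man2b1 and Gusb were the members in which every TG array lay above every WT array, 2 of 47, against 0.0465% of all genes, and in none was every TG array below every WT array (0.00581%). Without mouse 7 there were 5, which added Cd68, Laptm5 and Grn, against 0.232% of all genes.

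Hexa ranged from 8.15 to 8.45 (median 8.25) in WT and from 8.25 to 9.86 (median 8.999) in TG hippocampus and rose by 0.68 (SE 0.11). Naglu ranged from 4.01 to 4.68 (median 4.30) in WT and from 4.33 to 5.67 (median 4.79) in TG and rose by 0.61 (SE 0.10). Lamp2 ranged from 7.47 to 8.26 (median 7.73) in WT and from 7.75 to 8.89 (median 8.47) in TG and rose by 0.57 (SE 0.11). The genotypes overlapped in all 3, most in Lamp2, whose highest WT value came from mouse 52. That array also had the highest mean of choroid plexus markers in WT hippocampus, 7.52. In the TG arrays of mice 7, 40, 44, 46, 50 and 53, with choroid plexus means from 6.76 to 7.93, Lamp2 read 8.47 to 8.86. In the other TG arrays, with means of at most 4.43, it read 7.75 to 8.89. Lamp2 also passed with the choroid plexus mean in the model. The peptidases rose again: Lgmn by 0.46 (SE 0.09), Ctsa by 0.27 (SE 0.05) and Tpp1 by 0.26 (SE 0.06). None of the 5 sulfatases and neither phosphatase passed.

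Several members ended close to the threshold in the hippocampus. Tcirg1 ranged from 3.81 to 4.34 (median 4.02) in WT and from 3.96 to 5.27 (median 4.24) in TG and rose by 0.33 (SE 0.10, adjusted p = 0.0414 with limma). Gm2a ranged from 6.32 to 6.65 (median 6.42) in WT and from 6.30 to 6.79 (median 6.61) in TG and rose by 0.16 (SE 0.05, adjusted p = 0.0327 with limma). Gm2a had an adjusted p of 0.0876 without mice 4 and 7, and Tcirg1, Gm2a and Fuca1 had adjusted p-values of 0.0726, 0.129 and 0.0925 with choroid plexus content, the mean of its markers, in the model. Making array medians equal gave Gm2a an adjusted p of 0.0607, and a second quantile normalization gave Tcirg1 one of 0.0641. Lamp1 ranged from 10.14 to 10.50 (median 10.32) in WT and from 10.23 to 10.95 (median 10.45) in TG, and its difference of 0.16 (SE 0.05, adjusted p = 0.0616 with limma) did not pass. Its adjusted p was 0.0295 with the mouse as a replicate block, 0.0358 in the joint fit and 0.0456 among the brighter genes. Npc1 differed by 0.01 (95% interval -0.13 to 0.16).

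The 6 members that fell in the cortex showed small hippocampal differences that did not pass. These were 0.01 for Smpd1, -0.05 for Sort1, -0.00 for Atp6v0d1, -0.01 for Atp6v1a, -0.05 for Atp6v1b2 and -0.12 for Atp6v1h, with SE from 0.04 to 0.06. Atp6v1a ranged from 10.80 to 11.04 (median 10.96) in WT and from 10.22 to 11.07 (median 10.98) in TG hippocampus, where the lowest value belonged to mouse 4. None of the 15 other pump genes passed, and of the 34 other lysosomal genes Aga rose by 0.41 (SE 0.09) and Sorl1 fell by 0.19 (SE 0.04). All 15 microglial markers rose in the TG hippocampus, with a median of 1.12, and their mean lay between 6.14 and 6.58 in WT and between 6.44 and 8.80 in TG mice, lowest in mouse 7 and highest in mouse 4. Of the astrocyte markers 3 of 8 rose and of the neuronal markers 2 of 8 fell, beside 3.94% of all genes higher and 2.7% lower. The mean of the 13 measured choroid plexus markers lay between 3.60 and 7.52 in WT and between 3.65 and 7.93 in TG hippocampus. Its group means were 4.45 in WT (SD 1.08, n = 15) and 5.44 in TG (SD 1.75, n = 15), and all 13 markers were higher in TG, with a median of 1.02, though none of them passed. The part of these cell types in the lysosomal values was not tested.

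The effect of the transgenes was then compared between the regions in 1 fit of all 8 groups. In 17 of the 47 members the hippocampal effect was lower than the cortical one, and in 2 it was higher, against 6.89% of all genes that passed, 4.05% lower and 2.84% higher. Here a difference is the hippocampal TG effect minus the cortical TG effect. Cd68 gave -1.67 (SE 0.30), Laptm5 -1.23 (SE 0.21), Gusb -1.17 (SE 0.21), Grn -0.89 (SE 0.15) and Npc2 -0.76 (SE 0.14), with adjusted p-values of 0.000184, 8.77e-05, 0.000203, 7.24e-05 and 0.000252 from limma. The other 12 were Hexa, Tcirg1, Naglu, Man2b1, Lgmn, Lamp2, Ctsa, Fuca1, Tpp1, Lamp1, Gm2a and Lipa, from -0.71 to -0.26. The 2 of the opposite sign were Smpd1 (0.23, SE 0.06) and Atp6v1b2 (0.21, SE 0.06), which fell in the cortex and gave 0.01 and -0.05 in the hippocampus.

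By role, 9 of 26 hydrolases, 3 of 4 soluble proteins, 4 of 11 membrane proteins and 1 of 6 pump subunits had the lower hippocampal effect. Glb1, which rose by 0.41 in the cortex and by 0.35 in the hippocampus, differed by -0.06 (SE 0.10) between regions, and Laptm4a by -0.06 (SE 0.07). Atp6v1a, Atp6v1h and Atp6v0d1 gave 0.19 (SE 0.07), 0.20 (SE 0.08) and 0.17 (SE 0.07) and did not pass, nor did Npc1 (-0.26, SE 0.09) and Asah1 (-0.18, SE 0.07). With the mouse as a random replicate block Atp6v1a and Npc1 passed, with adjusted p-values of 0.0408 and 0.0428, and with the mouse as a fixed term Npc1 and Asah1 passed, with 0.0413 and 0.0375 (limma). Without the hippocampus arrays of mice 4 and 7 the regional difference passed in 26 members, 22 lower and 4 higher, among them Atp6v1a and Atp6v1h. Over all 17216 genes the calls also grew in that fit, to 1883 (924 lower and 959 higher) from 1186. All 15 microglial markers also had the lower effect in the hippocampus, with a median of -1.06, and their part in the regional difference of the lysosomal genes was not tested.

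The transgene effect did not differ between the sexes past the threshold for any member, nor for any gene of the array (0% in both regions, limma). At an unadjusted p below 0.05 there were 2 members and 1130 genes in the cortex and no member and 842 genes in the hippocampus. The difference given is the female effect minus the male effect. Among the members the smallest p in the cortex was that of Atp6v0d1, with a difference of 0.26 (SE 0.11, adjusted p = 0.718 with limma), where the TG effect was -0.04 in females and -0.30 in males. Within females of the cortex 26 members rose and 5 fell (18.9% of all genes passed, 8.75% higher and 10.2% lower), and within males 27 rose and 6 fell (20.5%, 8.8% and 11.7%). Within females of the hippocampus 9 rose and none fell (2.47%, 1.54% and 0.929%), and within males 13 rose and none fell (1.3%, 1.04% and 0.261%). These counts differ in group size and the contrast of the sexes itself passed for no member. The cortical effect on Cd68 was 3.82 in females and 3.58 in males, that on Gusb 2.43 and 2.28, that on Grn 1.75 and 1.70, and that on Tcirg1 1.17 and 0.89. In the hippocampus the effect on Cd68 was 1.94 in females and 2.13 in males and that on Gusb 1.30 and 1.06. On simulated data of the same size, a sex difference of 0.5 was recovered in 64% of changed genes in the cortex and 72% in the hippocampus. One of 1 was recovered in 96% in both, so smaller differences may have been missed. The changed genes were picked at random, and each gene had the same spread in every group. Cd68, Gusb and Laptm5 spread more widely in TG than in WT hippocampus, so larger differences may have been missed for such members.

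WT mice showed regional levels of their own. Of the 47 members 12 were higher and 10 lower in WT hippocampus than in WT cortex, against 38.8% of all genes that passed, 19.6% higher and 19.2% lower, so that the members lie near the share of genes at large. Npc1 ranged from 6.13 to 6.69 (median 6.36) in WT cortex and from 6.61 to 7.06 (median 6.81) in WT hippocampus, and was higher by 0.45 (SE 0.07, adjusted p = 6.26e-08 with limma). Arsb ranged from 5.25 to 5.66 (median 5.51) in the cortex and from 5.58 to 5.92 (median 5.79) in the hippocampus, and was higher by 0.28 (SE 0.04). Psap ranged from 11.10 to 11.39 (median 11.24) in the cortex and from 10.59 to 11.13 (median 10.92) in the hippocampus, a difference of -0.33 (SE 0.04). The regional ranges overlapped slightly in these 3 genes.

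The regional pattern of WT mice cut across the roles. Higher in the hippocampus were the hydrolases Galns, Gaa, Fuca1, Lipa, Sgsh and Acp2, the membrane proteins Lamp2, Laptm4a and Sort1, and the pump subunit Atp6v1a, from 0.11 to 0.32. Lower were Glb1, Asah1, Ids, Smpd1, Neu1, Idua and Gla, with Mcoln1 and the pump subunit Atp6v1b2, from -0.34 to -0.12. In the V1 sector the catalytic A subunit and the B2 subunit thus had opposite signs, 0.24 (SE 0.05) for Atp6v1a and -0.21 (SE 0.04) for Atp6v1b2. Lamp2 was higher by 0.28 (SE 0.10), and by 0.12 with an adjusted p of 0.282 with choroid plexus content in the model. The genes with the largest transgene effects showed small regional differences that did not pass: -0.05 (SE 0.21) for Cd68, -0.00 (SE 0.15) for Laptm5, 0.08 (SE 0.15) for Gusb and 0.01 (SE 0.11) for Grn. With the mouse as a replicate block Man2b1 was lower in WT hippocampus (-0.20, adjusted p = 0.0485 as a random block and 0.00211 as a fixed term, limma), and with the fixed term Lamp1, Npc2, Arsa and Atp6v1h passed as well (0.0127, 0.0147, 0.0335 and 0.0481). The SE of Cd68, Laptm5, Gusb and Grn comes from the spread of all 8 groups, TG arrays included.

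**Figure D4:**
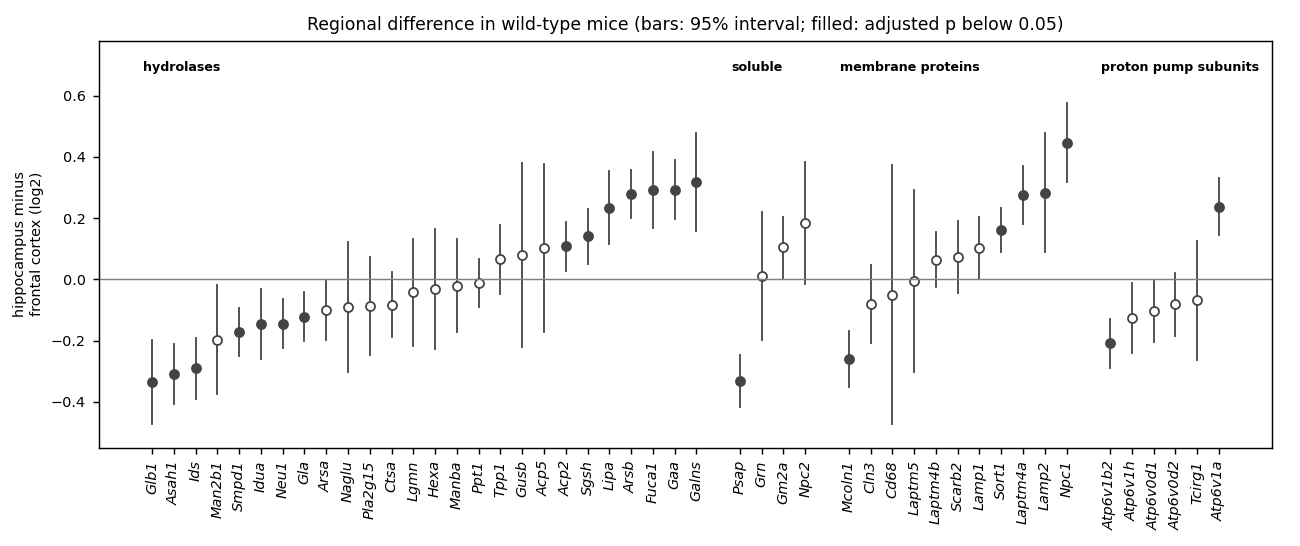
Hippocampus minus frontal cortex difference (log2, vertical axis) of each measured member in WT mice, grouped by role and sorted within each role. Bars are 95% intervals and filled points have an adjusted p below 0.05. Each role holds points on both sides of 0, from -0.34 for Glb1 to 0.45 for Npc1.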

How the data were processed

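The authors deposited 1 log2 value per probe set and array, and RMA and R 3.2.2 are named in the submitters' processing notes, per the labels. No chip definition file is named in the sources used here. Of 17856 probe sets, 17216 carry a gene symbol and were tested, and 640 without one were left out of the main tests. RMA includes quantile normalization, array medians lay between 4.74 and 4.86, and a change shared by most genes would not be seen. No array of the series duplicated another, and 0 columns stayed without a sample.

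Tests were run with limma 3.58.1 (lmFit and eBayes) in R 4.3.3, with data.table (version 1.17.8), and sequences and figures were handled in Python 3.11.15. Each region was fitted with the means of its 4 groups, and contrasts averaged the sexes. The region difference and the WT regions were fitted over all 8 groups. All tests are two-sided, and p-values were adjusted by the Benjamini-Hochberg method over the named genes, with a threshold of 0.05. On simulated data a TG change of 0.5 was recovered in 98% of changed genes in either region. These genes were picked at random and had the same spread in every group, unlike members with a wider spread in TG arrays. The number of arrays limits the precision.

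The members and lists were chosen with earlier results of these data known. Levels are given for the 4 members of smallest p per role and region, members that fell, related members, and the 3 of smallest p in the other contrasts. From the other lists the 3 of smallest p per direction were named, with exceptions stated. Arrays of both regions of a mouse share its number, and the labels' protocols describe both regions as taken from each mouse, so the numbers pair 28 mice. Deviations of paired arrays from their group means correlated from -0.033 to 0.363 (median 0.111). Alternatives were 2 other scalings, the brighter genes alone, all probe sets, a trended robust prior, array weights, 1 joint fit, the mouse as a replicate block, a choroid plexus covariate and leaving out arrays of mice 1, 4 and 7. Leaving out the array of mouse 1 or of mouse 7 alone was chosen after seeing the data.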

Additional observations from a re-analysis of the deposited data

Results flagged for a closer look

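Single arrays stood far from the other arrays of their group in 19 of 232 sets of values tested, and chance alone gives about 1 in 20. The sets share arrays, and 32 of them are role means that include named members. They are therefore not independent, and 1 shifted array can count several times. The frontal cortex array of female WT mouse 1 was high in 6 of the 19: Cd68 (5.36), Grn (8.30), Npc2 (7.55), Gm2a (6.75), Lamp2 (7.78) and the mean of the soluble proteins (8.48). Its mean of the microglial markers was 6.83, the highest of the WT cortex. The hippocampus array of female TG mouse 4 was low in 3 pump subunits, Atp6v1a (10.22), Atp6v1b2 (9.59) and Atp6v1h (8.68).

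Male WT mouse 52 was high in the hippocampus for Smpd1 (8.90) and the mean of the hydrolases (6.30). Its mean of the choroid plexus markers was 7.52, the highest of the WT hippocampus. High values of 1 array each were found for Hexa in female WT hippocampus mouse 3 (8.44), Ctsa in male TG hippocampus mouse 50 (6.60), Atp6v1h in male TG hippocampus mouse 46 (9.60), Arsb in male TG cortex mouse 40 (5.89) and Lamp2 in male WT cortex mouse 51 (7.67). Low values were found for Naglu in female WT cortex mouse 13 (4.03), Tcirg1 in male TG cortex mouse 41 (4.33) and the mean of the pump subunits in female WT hippocampus mouse 5 (7.84).

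The TG effect differed between the regions in 19 members, by limma's test of the difference. The hippocampal minus the cortical effect was -1.67 for Cd68, -1.23 for Laptm5, -1.17 for Gusb, -0.89 for Grn, -0.76 for Npc2, -0.71 for Hexa and -0.70 for Tcirg1. It was -0.58 for Naglu, -0.54 for Man2b1, -0.48 for Lgmn, -0.46 for Lamp2, -0.44 for Ctsa and -0.36 for Fuca1. It was -0.31 for Tpp1, -0.29 for Lamp1, -0.26 for Gm2a, -0.26 for Lipa, 0.23 for Smpd1 and 0.21 for Atp6v1b2.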

How the results depend on the processing

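Counts of members past the threshold stayed within 1.5 times of those reported under every alternative run: 32 to 39 for the cortex (36 reported), 19 to 22 for the hippocampus (21), 18 to 26 for the region difference (19) and 19 to 27 for the WT regions (22). No member that passed changed sign. The brighter genes held 40 of the 47 members in the cortex and 39 in the other fits, so dimmer members were not tested there. Passing under every alternative that tested them were 29 of 30 cortical rises (not Galns), all 6 cortical falls, 18 of 21 hippocampal rises (not Gm2a, Tcirg1 and Fuca1), 18 of 19 regional differences (not Lipa) and 19 of 22 WT regional differences (not Acp2, Lamp2 and Idua). With the mouse as a replicate block (random, consensus correlation 0.104) the counts of members were 39, 22, 21 and 23, and with the mouse as a fixed term 21 for the region difference and 27 for the WT regions, so that the pairing ended no call, and the calls it added are named with their results. Over all genes, equal array medians gave 1733 calls in the hippocampus (1143 reported) with 576 higher and 1157 lower in place of 678 and 465. In the cortex they gave 1660 higher and 4976 lower in place of 2227 and 3219. The region difference passed in 2072 genes with array weights and in 1883 without mice 4 and 7 (1186 reported). The sex difference in the hippocampus passed in 1 gene with the choroid plexus covariate (0 reported). The cause of these shifts was not tested. Dim probe sets were not filtered, and no detection calls were used.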
